A study of Mus musculus with 12 samples.

Results

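A set of 10 genes that build or regulate epithelia was followed in mouse embryonic stem cells: the grainyhead factors Grhl2 and Grhl3, the AP-2 factors Tfap2a and Tfap2c, the simple keratins Krt8, Krt18 and Krt19, the adhesion genes Epcam and Cdh1, and the splicing regulator Esrp1. They were chosen by symbol, and all 10 were found among the 31641 genes of the count table. Libraries came from 2 lines with the genotype Tin2 S341X, Mut-1 and Mut-2, and from 2 wild-type ESC lines called WT-1 and WT-2, with 3 libraries per line that the study's design text calls technical replicates. Each line is 1 ESC line derived from C57BL/6 blastocysts. All 4 lines were cultured with serum and LIF on a layer of mouse embryonic fibroblasts (MEFs). Total RNA was extracted from whole cultures, and RNA of the feeder cells can therefore be present in each library. The product of Tinf2, TIN2, belongs to shelterin, the protein complex that covers telomeres. The series asks how its deficiency bears on telomere maintenance and on differentiation.

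Embryonic stem cells are epithelial in character: they grow as compact colonies held together by E-cadherin, the product of Cdh1. Grainyhead factors bind enhancers of junction genes, Cdh1 among them, and are needed in the mouse for neural tube closure, and Grhl3 also for the epidermal barrier. AP-2 factors act in surface ectoderm, neural crest, trophoblast and germ cells. Keratins assemble as pairs of a type II and a type I chain, and Krt8 with Krt18 is the first pair made in the embryo.

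Tinf2 lay at 19.7 to 30.1 CPM in the 6 mutant libraries and at 57.7 to 69.2 CPM in the 6 wild-type libraries, where CPM is the share of a library's counts, scaled to a common library size with TMM normalization, which corrects for library composition. Libraries held 14766477 to 17891894 counts. The pluripotency genes Pou5f1, Nanog and Sox2 averaged 306, 797 and 404 CPM over the 12 libraries, while the epidermal markers Trp63, Krt5, Krt14 and Krt1 averaged 0.123, 0.125, 0.421 and 0.0592 CPM. The trophoblast markers Cdx2, Elf5 and Prl3d1 averaged 0.656, 0.107 and 0.0106 CPM. Of the whole lists, 11 of 23 surface ectoderm and epidermal genes and 7 of 22 trophoblast genes averaged under 1 CPM, and none was at 0 throughout. Among the others, the epidermal genes Sfn and Perp averaged 82.8 and 36.6 CPM. The highest of the trophoblast list, Sin3b, Peg10, Ets2 and Tfeb, averaged 111, 75.9, 57.2 and 52.1 CPM. Its factors Eomes and Gata2 averaged 13.5 and 12.8 CPM. The epidermal list took 0.0133 to 0.0203% of counts in mutant libraries and 0.0121 to 0.0199% in wild-type libraries, and the trophoblast list 0.0409 to 0.0437% in mutant libraries and 0.0382 to 0.0418% in wild-type libraries. Within WT-1, replicates 1 and 2 were unusually alike: the chi-square of their counts was 1.66 per degree of freedom, against 12 to 42.5 for other libraries that share a line. WT-1 replicate 3 stood at 42.4 and 42.5 from its own line and at 10.8 from WT-2 replicate 3. Several other libraries were also closer to another line than to their own. Mut-1 replicate 1 stood at 30.1 and 33.5 from its own line and at 14.4 from Mut-2 replicate 1. WT-2 replicate 2 stood at 19.2 and 30.5 from its own line and at 13.2 from WT-1 replicate 2. Values of Grhl2 in Mut-1 against WT-1, and of Esrp1 against WT-1, are given with and without WT-1 replicate 3.

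Fold changes of the genotype compare the 2 mutant with the 2 wild-type lines, each line being the sum of its 3 libraries. Those between single lines come from 1 fit of all 12 libraries, whose p-values measure only the spread between libraries of a line. A gene was called at an adjusted p under 0.05, with edgeR's quasi-likelihood test and Benjamini-Hochberg adjustment over all genes tested. All 10 genes passed the filter on low counts in both fits. Their lowest count was 38, for Tfap2a, and their highest was 11966, for Cdh1.

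Per length of exon, Cdh1 was the highest of the 10 genes at a mean of 128 CPM per kb, followed by Epcam at 63.8 CPM per kb. Both stood above the others in each line: Cdh1 was at 103 CPM per kb or more and Epcam at 53.6 to 76.8. Krt8, Tfap2c, Krt18 and Krt19 came next with means of 16.6, 13.1, 12.9 and 11.2 CPM per kb. These 4 genes do not differ beyond the spread between lines, since Krt8 alone ran from 11.6 CPM per kb in Mut-2 to 23.8 in Mut-1. Grhl3 was at a mean of 7.53 CPM per kb, with its highest line at 9, above the 7.75 CPM per kb of Krt19 in Mut-2. Esrp1 at 2.41, Grhl2 at 0.928 and Tfap2a at 0.763 CPM per kb closed the order, and the line values of Grhl2 (0.629 to 1.34) and Tfap2a (0.649 to 0.977) overlapped.

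**Figure D1:**
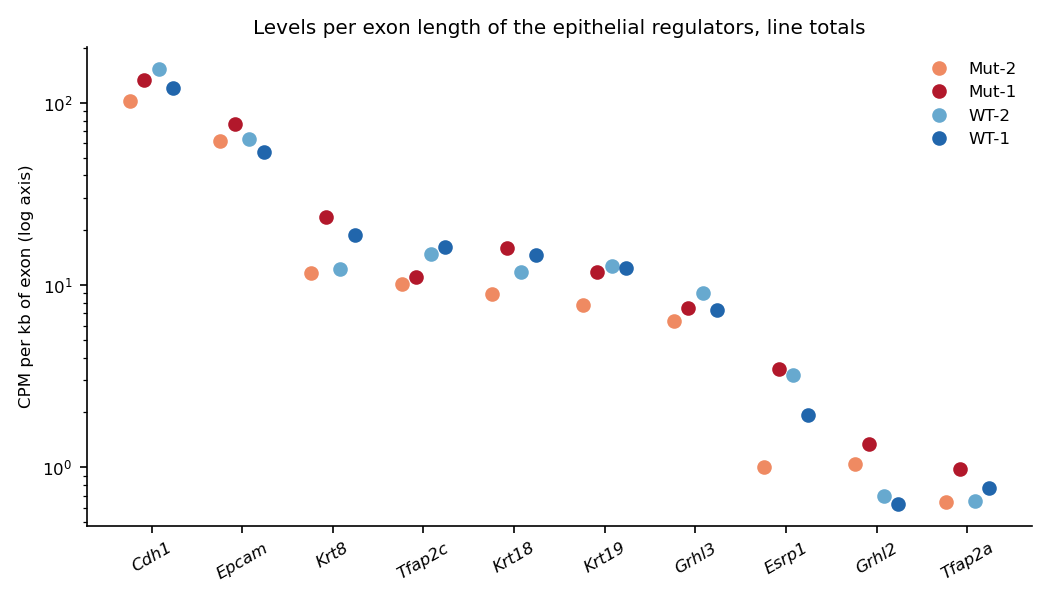
Level of each gene in CPM per kb of exon (log axis), 1 point per line total, in the order Mut-2, Mut-1, WT-2 and WT-1. Cdh1 and Epcam stand above the keratins and Tfap2c, and Esrp1, Grhl2 and Tfap2a lie lowest, with Esrp1 between 0.999 CPM per kb in Mut-2 and 3.47 in Mut-1.

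Between genotypes, Tfap2c was lower in every mutant library and Grhl2 was higher in both mutant lines, but none of the 10 genes was called with edgeR on line totals, while DESeq2 on the same totals called both. The test of line totals called 0 of 18749 genes (0.0%) in either direction. The unadjusted p was under 0.05 for 2447 genes (13.1%), 1719 of them higher (9.17%) and 728 lower (3.88%). Among the 10 genes, 1 was higher (Grhl2) and 1 lower (Tfap2c) at that level, which is a share close to the background. Their median log2 fold change was -0.15, with 4 above and 6 below 0, beside a median of 0.00 over all genes tested.

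Grhl2, the grainyhead factor known in mouse for its action on junction genes and neural tube closure, lies on chromosome 15 at 37233036 to 37363569 (GRCm38, plus strand). Replicates 1, 2 and 3 had 9.44, 11.5 and 5.47 CPM in Mut-2 and 8.29, 14.1 and 13.0 CPM in Mut-1, against 5.91, 4.40 and 7.93 CPM in WT-2 and 2.98, 3.14 and 9.80 CPM in WT-1. The groups overlapped, with 3 mutant libraries above each wild-type library. WT-1 replicate 3 was the highest wild-type library, well above the other libraries of its line. Line totals averaged 10.3 ± 1.85 CPM in mutant lines and 5.72 ± 0.423 CPM in wild-type lines (SD, n = 2 lines each), and the log2 fold change was 0.84 (SE 0.20, adjusted p = 0.214 with edgeR). DESeq2 on the same line totals gave 0.83 and called it (adjusted p = 0.0192), in a test that called 361 of 15078 genes (2.39%). With 12 libraries as units neither edgeR (adjusted p = 0.169) nor limma-voom (adjusted p = 0.132) called it. Mut-1 against WT-1 gave 1.15 (SE 0.44, adjusted p = 0.396) and Mut-2 against WT-2 gave 0.54 (SE 0.43, adjusted p = 0.614). The second value turned to -0.16 when the 3 libraries richest in feeder markers were left out, which left 1 Mut-2 library. Without WT-1 replicate 3, Mut-1 against WT-1 was 1.94 and was called (adjusted p = 0.0239), in a fit that called 447 genes (2.64%) in place of 54 (0.327%). This fit left WT-1 with replicates 1 and 2, the unusually alike pair (chi-square of 1.66 per degree of freedom). Its p-values therefore rest in part on the small spread between these libraries. Grhl2 shares 169 bases of exon with the antisense gene Gm16136, which averaged 0.0408 CPM.

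Grhl3, the grainyhead factor of the epidermal barrier, lies on chromosome 4 at 135541888 to 135573630 (minus strand). The mutant libraries ran from 12.7 CPM over a median of 20.4 to 25.6 CPM, and the wild-type libraries from 17.1 over 19.1 to 40.0 CPM. Apart from 40.0 CPM in WT-2 replicate 1, the wild-type libraries lay between 17.1 and 22.8 CPM, inside the mutant range. Line totals averaged 19.3 ± 2.32 CPM in mutant lines and 22.8 ± 3.33 CPM in wild-type lines, a log2 fold change of -0.24 (SE 0.16, adjusted p = 0.573 with edgeR). The sign of this value depended on WT-2 replicate 1, and the range without single libraries was -0.41 to 0.03.

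Tfap2c, or AP-2 gamma, acts in trophoblast and germ cells and is also made in embryonic stem cells. It lies on chromosome 2 at 172549593 to 172558622 (plus strand). Replicates 1, 2 and 3 had 42.2, 25.0 and 44.2 CPM in Mut-2 and 40.6, 36.0 and 46.3 CPM in Mut-1, against 59.0, 54.3 and 50.9 CPM in WT-2 and 61.7, 63.7 and 52.4 CPM in WT-1. The groups did not overlap: the highest mutant library, at 46.3 CPM, was below the lowest wild-type library, at 50.9 CPM. Of all genes tested, 121 (0.645%) lay lower and 249 (1.33%) higher in all 6 mutant libraries than in any of the 6 wild-type ones, and Tfap2c was the 1 of the 10 genes among them. Line totals averaged 39.0 ± 2.51 CPM in mutant lines and 57.2 ± 3.32 CPM in wild-type lines (SD, n = 2 lines each), and the log2 fold change was -0.55 (SE 0.12, adjusted p = 0.181 with edgeR). Mut-2 against WT-2 gave -0.56 (SE 0.19, adjusted p = 0.172), and Mut-1 against WT-1 gave -0.53 (SE 0.19, adjusted p = 0.345). The same-genotype pairs differed less, at -0.14 for Mut-2 against Mut-1 and -0.11 for WT-2 against WT-1.

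Whether Tfap2c passed the threshold depended on the model. DESeq2 on the line totals called it (adjusted p = 0.0168). So did edgeR with all 12 libraries as units, with adjusted p = 0.0491 (387 genes called, 2.34%) and 0.0348 with a replicate block (559 genes, 3.29%), and limma-voom with the line as a random block (adjusted p = 0.0446, 233 genes, 1.41%). By the design text the 3 libraries of a line are technical replicates, and both edgeR fits of 12 libraries measure the spread between them and not between lines. In the limma-voom fit the correlation within lines was estimated at -0.00251, so that the 12 libraries entered in effect as independent samples. Beside this result stand the values of the feeder list, markers of the fibroblasts on which the cells grew. None of its 39 measured genes was called between genotypes. All 39 had a higher value in the mutants, 38 of them at an unadjusted p under 0.05 (9.17% of all genes were higher at that level), and their summed share was 0.754 to 1.78% of counts in mutant libraries and 0.690 to 0.966% in wild-type libraries. None of the 39 was at 0 throughout. With the feeder share as a covariate in limma-voom, Tfap2c was at -0.43 (adjusted p = 0.387), and in a fit that left out the 3 libraries richest in feeder markers it was at -0.41 (adjusted p = 0.706). In order of feeder share, the mutant libraries had 46.3 CPM of Tfap2c at 0.754%, 36.0 CPM at 0.889% and 44.2 CPM at 0.953%. They had 42.2 CPM at 1.53%, 25.0 CPM at 1.68% and 40.6 CPM at 1.78%. The part of feeder RNA in the Tfap2c difference was not tested. In bulk RNA, fewer cells that make a transcript and less of it per cell cannot be told apart.

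Tfap2a, or AP-2 alpha, a factor of neural crest and surface ectoderm, lies on chromosome 13 at 40715302 to 40738376 (minus strand). It was the lowest of the 10 genes per length. Mutant libraries had 2.63 to 5.20 CPM with a median of 3.82, and wild-type libraries 2.79 to 4.92 CPM with a median of 3.26, so the groups overlapped. The log2 fold change was 0.19 (SE 0.26, adjusted p = 0.802 with edgeR). It turned to -0.14 without line Mut-1, whose total of 4.79 CPM was the highest of the 4 lines. On the opposite strand 3 antisense genes overlap its exons, and reads from the opposite strand cannot be told apart where the counting is not stated to use strand.

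**Figure D2:**
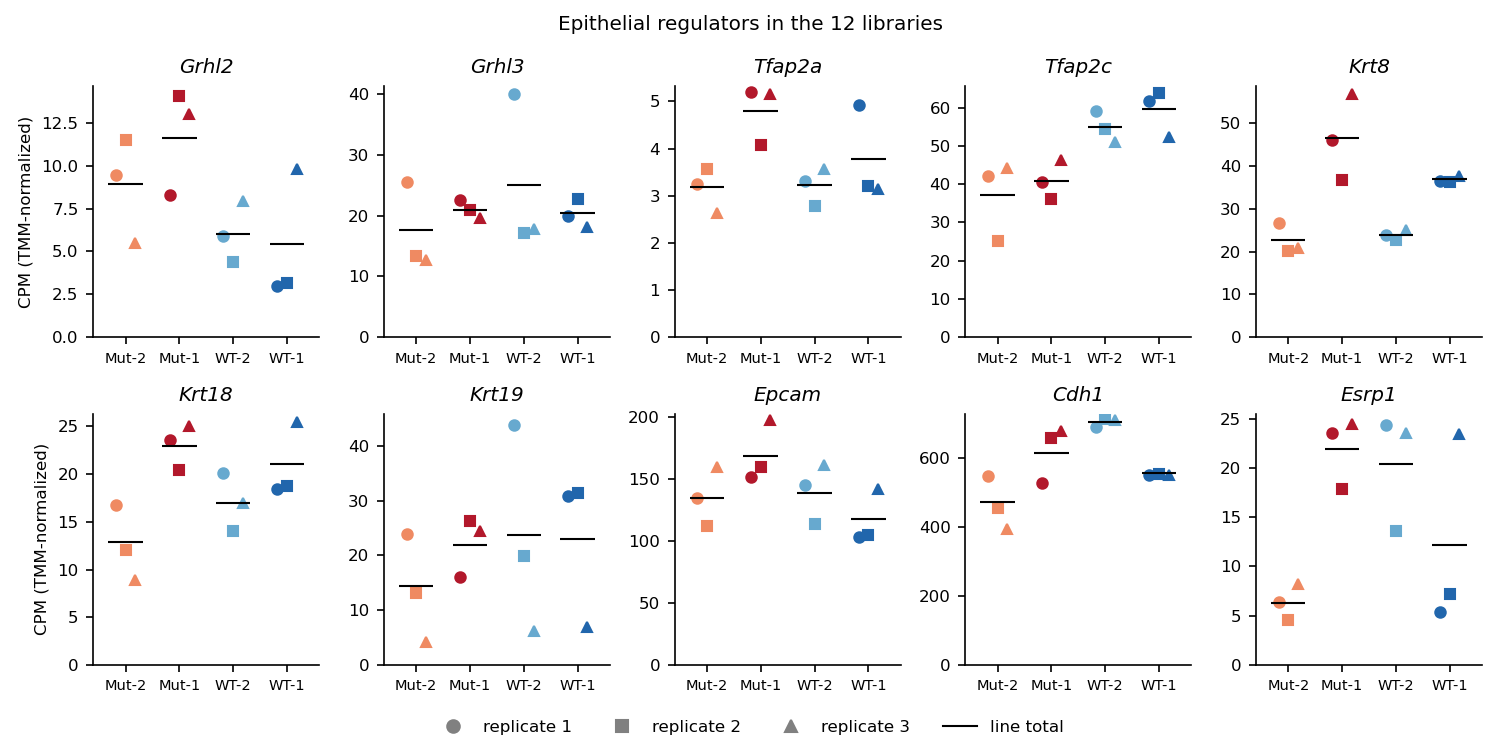
Level of the 10 genes in CPM (linear axes from 0) in Mut-2, Mut-1, WT-2 and WT-1, with circle, square and triangle for replicates 1, 2 and 3 and a bar for the line total. The mutant libraries of Tfap2c all lie below its wild-type libraries, Krt8 is lower in Mut-2 and WT-2 than in Mut-1 and WT-1, and Esrp1 falls into a high and a low set that cut across genotype.

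Krt8 and Krt18 differed more between lines of 1 genotype than between the genotypes. Krt8, the type II chain of the simple epithelial pair, was lower in Mut-2 than in Mut-1 and was the only one of the 10 genes called in any of the 4 pairs of lines. Its partner Krt18, the type I chain, had the same order without passing. Krt8 lies on chromosome 15 at 101996698 to 102004482 (minus strand) and Krt18 beside it at 102028180 to 102032027 (plus strand). Krt19, a type I chain of ducts and other simple epithelia, lies on chromosome 11 at 100140810 to 100148665 (minus strand).

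Because Krt8 and Krt18 are neighbours with promoters on opposite strands and their levels went together across libraries, the 250 bases before the RefSeq start site of each are shown 5′ to 3′. They come from RefSeq on GRCm38.p6, at chr15:102004343-102004592 (minus strand) for Krt8 and chr15:102027966-102028215 (plus strand) for Krt18. Capitals mark motif matches.
Krt8: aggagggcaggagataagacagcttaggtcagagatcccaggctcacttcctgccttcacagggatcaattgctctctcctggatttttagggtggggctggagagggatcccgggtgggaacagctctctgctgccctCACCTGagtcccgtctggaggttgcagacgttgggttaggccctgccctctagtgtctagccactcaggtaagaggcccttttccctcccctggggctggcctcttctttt
Krt18: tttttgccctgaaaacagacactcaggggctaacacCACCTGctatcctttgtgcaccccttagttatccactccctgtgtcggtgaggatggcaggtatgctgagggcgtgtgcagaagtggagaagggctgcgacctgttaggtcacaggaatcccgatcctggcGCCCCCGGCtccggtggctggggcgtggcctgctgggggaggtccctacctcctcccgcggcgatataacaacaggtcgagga

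The search took 3 motifs on both strands in windows from 250 bases before to 50 bases after the start site: the grainyhead motif AACCNGTT, the AP-2 motif GCCNNNGGC and the E-box CAGGTG. They are held by 2.09%, 16.6% and 20.2% of the 32851 windows in the RefSeq table. Krt8 had an E-box 111 bases before its start, and Krt18 had an E-box 214 bases and an AP-2 match 83 bases before its start. Windows were given for 5 of the 10 genes. Epcam had E-box matches 187 and 19 bases before its start, Grhl3 had 1 at 19 bases before and another after the start, and both Tfap2a windows had no match of any of the motifs. The grainyhead letters were in none of these windows. A match describes letters and is no evidence of binding.

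Replicates 1, 2 and 3 of Krt8 had 26.7, 20.1 and 20.9 CPM in Mut-2 and 46.1, 36.8 and 56.9 CPM in Mut-1, against 24.0, 22.8 and 25.0 CPM in WT-2 and 36.5, 36.2 and 37.6 CPM in WT-1. The libraries of Mut-2 and WT-2 lay between 20.1 and 26.7 CPM, below each library of Mut-1 and WT-1, the lowest of which had 36.2 CPM. Mut-2 against Mut-1 gave a log2 fold change of -1.05 (SE 0.16) and was called (adjusted p = 0.011 with edgeR), in a comparison that called 43 of 16533 genes (0.26%), 35 of them lower (0.212%). WT-2 against WT-1 gave -0.62 (SE 0.16) and did not pass (adjusted p = 0.402). Between genotypes, line totals averaged 34.7 ± 16.8 CPM in mutant lines and 30.4 ± 9.28 CPM in wild-type lines (SD, n = 2 lines each), and the log2 fold change was 0.19 (SE 0.32, adjusted p = 0.848). Krt8 shares 101 bases of exon with Gm36026 on the opposite strand. The call for Mut-2 against Mut-1 was lost without Mut-1 replicate 3 (-0.88, adjusted p = 0.0803), without Mut-2 replicate 2 (-0.99, 0.0851) and without Mut-2 replicate 3 (-1, 0.0732). It was also lost without the 3 libraries of highest feeder share, where 1 Mut-2 library was left and the value was -1.18 (adjusted p = 0.287).

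Krt18 had 16.8, 12.1 and 8.86 CPM in Mut-2 and 23.6, 20.4 and 25.1 CPM in Mut-1, against 20.1, 14 and 17.0 CPM in WT-2 and 18.4, 18.8 and 25.5 CPM in WT-1. The mutant lines did not overlap with each other, and the wild-type lines did. Mut-2 against Mut-1 gave -0.87 (SE 0.23, adjusted p = 0.312 with edgeR), which DESeq2 called (adjusted p = 0.0258, among 126 genes, 0.803%), and WT-2 against WT-1 gave -0.29. The genotype difference was -0.09 (SE 0.26, adjusted p = 0.914). The ratio of Krt8 to Krt18 in CPM lay between 1.59 and 2.36 in mutant libraries and between 1.19 and 1.98 in wild-type libraries.

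Krt19 varied most of the 10 genes, 10.6-fold between its extreme libraries, and mainly between libraries of the same line. It had 23.9, 13.1 and 4.15 CPM in Mut-2 and 16.1, 26.3 and 24.5 CPM in Mut-1, against 43.9, 19.9 and 6.15 CPM in WT-2 and 30.8, 31.5 and 7 CPM in WT-1. Replicate 3 was the lowest library in Mut-2, WT-2 and WT-1, at 4.15 to 7 CPM, but not in Mut-1. Each of these 3 lines thus held a 4.50- to 7.14-fold range, which none of the differences between lines exceeded. The genotype difference was -0.37 (SE 0.20, adjusted p = 0.476 with edgeR), and Mut-2 against WT-2 gave -0.76 (SE 0.68, adjusted p = 0.664). Summed line totals hide this spread, since WT-2 and WT-1 came to 23.8 and 23.0 CPM.

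**Figure D3:**
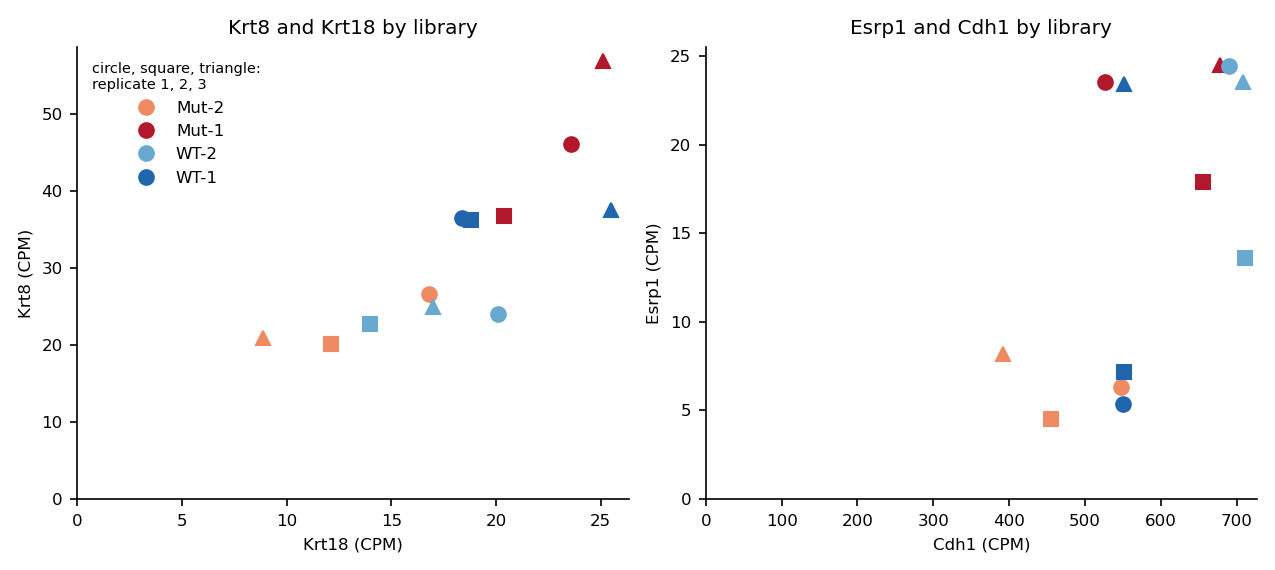
Krt8 against Krt18 (left) and Esrp1 against Cdh1 (right) in CPM, 1 point per library, coloured by line and shaped by replicate number. On the left the libraries of Mut-2 and WT-2 lie at 20.1 to 26.7 CPM of Krt8. On the right Mut-2 lies low in Esrp1 and at 392 to 548 CPM of Cdh1, where Mut-1 replicate 1 lies at 527 CPM. WT-1 holds 1 library with 23.4 CPM of Esrp1 and others with 5.38 and 7.16 CPM.

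The adhesion genes Epcam and Cdh1 varied least of the 10 genes, 1.92-fold and 1.81-fold between their extreme libraries. Epcam encodes a cell adhesion molecule of epithelia and stem cells and lies on chromosome 17 at 87635979 to 87651129 (plus strand). Replicates 1, 2 and 3 had 135, 112 and 160 CPM in Mut-2 and 152, 160 and 198 CPM in Mut-1, against 145, 114 and 161 CPM in WT-2 and 103, 105 and 142 CPM in WT-1. The Mut-1 libraries lay above each WT-1 library, and Mut-2 and WT-2 covered nearly the same range. Mut-1 against WT-1 gave 0.55 (SE 0.18, adjusted p = 0.307 with edgeR) and Mut-2 against WT-2 gave -0.04, whose sign changed without single libraries (-0.18 to 0.07). Between genotypes the log2 fold change was 0.24 (SE 0.14, adjusted p = 0.504).

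Cdh1 lies on chromosome 8 at 106603351 to 106670246 (plus strand). It had 548, 455 and 392 CPM in Mut-2 and 527, 656 and 678 CPM in Mut-1, against 690, 711 and 709 CPM in WT-2 and 550, 552 and 551 CPM in WT-1. Both wild-type lines were tight, and WT-2 lay above WT-1 by more than the spread of either. The 3 libraries of Mut-2 and replicate 1 of Mut-1 were below each wild-type library. Mut-2 against WT-2 gave a log2 fold change of -0.60 (SE 0.14) and missed the threshold (adjusted p = 0.0592 with edgeR), while 153 genes (0.925%) were called. With a replicate block it was -0.62 and was called (adjusted p = 0.0465, among 314 genes, 1.85%), and without Mut-2 replicate 1 it was -0.73 and was called (adjusted p = 0.0428, among 120 genes, 0.714%). DESeq2 on the 12 libraries also called it (adjusted p = 0.00261, among 657 genes, 3.88%). Mut-2 over Mut-1 was -0.42, Mut-1 over WT-1 was 0.17 and WT-2 over WT-1 was 0.35, of which none was called, and the genotype difference was -0.22 (SE 0.16, adjusted p = 0.607).

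The 813 tested genes of chromosome 8 had a median of -0.21 in Mut-2 against WT-2 and of 0.17 in WT-2 against WT-1, and relative to these medians Cdh1 was at -0.38 and 0.18. The part of this shift in the Cdh1 values was not tested. The feeder share of Mut-2 libraries was 1.53, 1.68 and 0.953%, and the library of lowest share, replicate 3, had the lowest Cdh1, at 392 CPM. Mut-1 libraries had shares of 1.78, 0.889 and 0.754%, and there the library of highest share, replicate 1, had the lowest Cdh1, at 527 CPM. When the 3 libraries richest in feeder markers were left out, Mut-2 against WT-2 was at -0.85, with only 1 Mut-2 library left. The part of feeder RNA in the Cdh1 values was not tested.

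Esrp1 encodes an RNA-binding protein that directs the splicing of epithelial isoforms, and lies on chromosome 4 at 11331933 to 11386783 (minus strand). Replicates 1, 2 and 3 had 6.35, 4.51 and 8.17 CPM in Mut-2 and 23.5, 17.9 and 24.5 CPM in Mut-1, against 24.4, 13.6 and 23.5 CPM in WT-2 and 5.38, 7.16 and 23.4 CPM in WT-1. All Mut-2 libraries and WT-1 replicates 1 and 2 were at 8.17 CPM or lower, and the other 7 libraries at 13.6 CPM or higher, so each genotype held both levels. Mut-2 against Mut-1 gave -1.79 (SE 0.46, adjusted p = 0.265 with edgeR) and Mut-2 against WT-2 gave -1.69 (SE 0.46, adjusted p = 0.0963). With a replicate block both were called, at -1.85 (adjusted p = 0.0363, among 68 genes, 0.4%) and -1.72 (adjusted p = 0.0283, among 314 genes, 1.85%). DESeq2 on the 12 libraries also called both, at -1.8 (adjusted p = 0.00581, among 126 genes, 0.803%) and -1.71 (adjusted p = 0.00517, among 657 genes, 3.88%). These comparisons share the Mut-2 libraries. Esrp1 shares 127 bases of exon with Gm26663 on the opposite strand, which averaged 0.0148 CPM.

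The third library of WT-1 decided how Esrp1 compared with that line. With it, Mut-1 against WT-1 was 0.87 (SE 0.44, adjusted p = 0.476) and WT-2 against WT-1 was 0.77 (SE 0.44, adjusted p = 0.715). Without it, they were 1.81 (adjusted p = 0.0153) and 1.71 (adjusted p = 0.0489), and both were called, the second among 42 genes (0.248%). WT-1 was then left with its replicates 1 and 2, which were unusually alike, so these p-values rest in part on the small spread between them. Over genotypes Esrp1 averaged 14.1 ± 11 CPM in mutant lines and 16.3 ± 5.74 CPM in wild-type lines (SD, n = 2 lines each), and the log2 fold change was -0.21 (SE 0.49, adjusted p = 0.894). Its paralogue Esrp2 was at 5.29 ± 0.430 CPM in mutant lines and 7.35 ± 1.45 CPM in wild-type lines, with a log2 fold change of -0.48 (adjusted p = 0.404).

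The pairs of lines differed in how the 10 genes were placed. In Mut-2 against Mut-1 all 10 genes had a negative log2 fold change, from -1.79 to -0.14 with a median of -0.51, beside a median of 0.02 over the 16533 genes tested. Krt8 was called, and 5 of the 10 genes were lower at an unadjusted p under 0.05 (Krt8, Esrp1, Krt18, Cdh1 and Tfap2a), beside 603 of all genes (3.65%). Tfap2c, the smallest of these differences, changed sign without Mut-2 replicate 2 (0.06) and when the 3 libraries richest in feeder markers were left out (0.09). In the same pair the feeder list had 37 genes higher and 2 lower (median 0.27). Trophoblast genes had 13 lower and 4 higher (median -0.38), and surface ectoderm and epidermal genes 12 lower and 3 higher (median -0.18). The part of feeder RNA in these values was not tested. In Mut-2 against WT-2, 9 of the 10 genes were negative with a median of -0.48, and Cdh1, Tfap2c and Esrp1 were lower at an unadjusted p under 0.05, beside 901 of all genes (5.45%). In Mut-1 against WT-1, 8 of the 10 were positive with a median of 0.26, and Grhl2, Epcam and Krt8 were higher and Tfap2c lower at that level, beside 1070 genes (6.47%) higher and 795 (4.81%) lower. In WT-2 against WT-1, which called 3 genes (0.0181%), the 10 genes had a median of 0.10, with Cdh1 higher and Krt8 lower at that level, beside 689 genes (4.17%) higher and 569 (3.44%) lower. These comparisons share lines, so their values are not independent of each other.

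**Figure D4:**
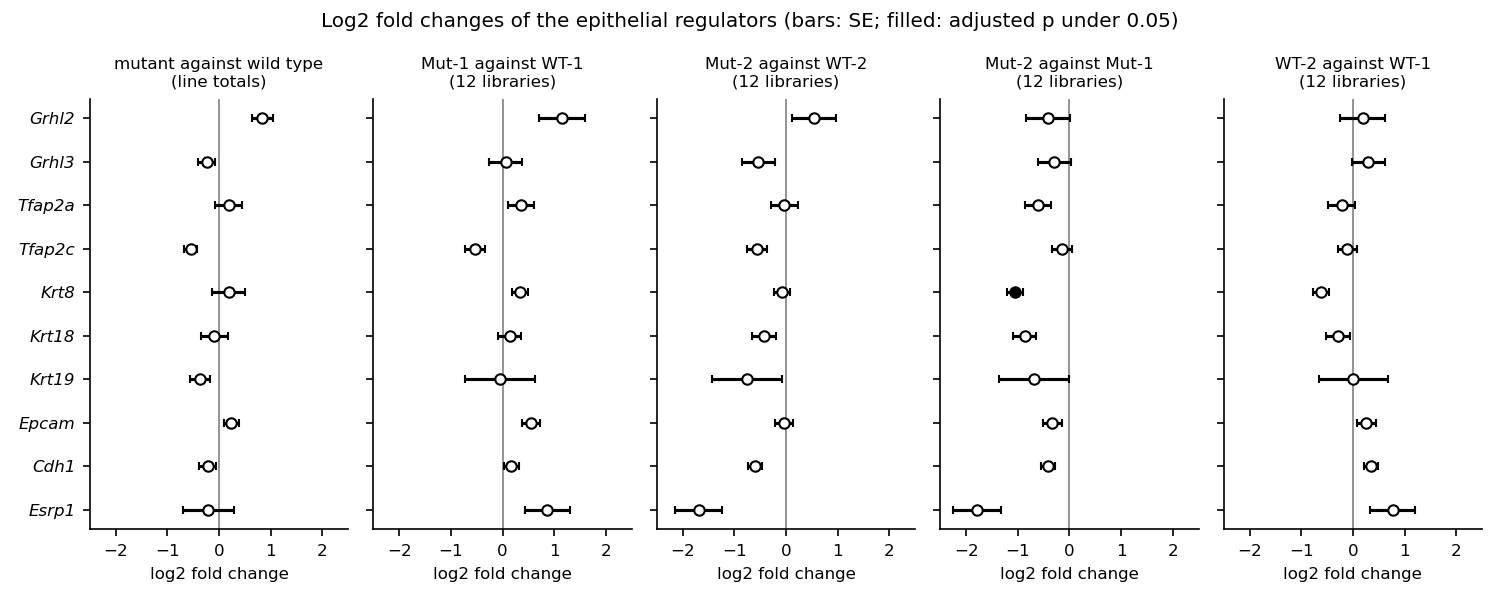
Log2 fold changes with their SE for the genotype (line totals) and for the 4 pairs of lines (12 libraries), with the first-named line over the second, and a filled point for an adjusted p under 0.05. The single filled point is Krt8 in Mut-2 against Mut-1, at -1.05, and all 10 points of that panel lie below 0.

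Junction and polarity genes, the machinery that the grainyhead factors are known to serve, divided evenly between the genotypes. All 48 listed genes were tested, 25 had a higher and 23 a lower value in the mutants, and the median was 0.00. Dsg2, a desmosomal cadherin, was the 1 gene at an unadjusted p under 0.05, at 65.0 ± 7.73 CPM in mutant lines and 43.7 ± 6.25 CPM in wild-type lines (log2 fold change 0.57, adjusted p = 0.22). The catenins that tether E-cadherin to actin were even: Ctnnb1 was at 474 ± 6.88 CPM in mutant lines and 472 ± 12.5 CPM in wild-type lines, and Ctnna1 at 486 ± 4.86 CPM in mutant lines and 522 ± 29.9 CPM in wild-type lines. Between lines the counts leaned to 1 side. In Mut-2 against WT-2, 32 of 47 tested genes were lower with a median of -0.21, and 11 were lower and 1 higher at an unadjusted p under 0.05, beside 5.45% and 9.67% of all genes. In Mut-1 against WT-1, 32 of 47 were higher with a median of 0.19, and 8 were higher and 1 lower at that level, beside 6.47% and 4.81% of all genes. In Mut-2 against Mut-1, 36 of 47 were lower with a median of -0.19, 11 of them at that level, beside 3.65% of all genes. In WT-2 against WT-1, 35 of 47 were higher with a median of 0.19, 10 of them at that level, beside 4.17% of all genes. These pairs share lines, and no gene of the list was called in any of the 4 pairs.

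Cldn4, a tight junction claudin, was high and low in the same libraries as Esrp1. It was at 135, 117 and 168 CPM in Mut-2 and 184, 217 and 257 CPM in Mut-1, against 263, 236 and 274 CPM in WT-2 and 115, 114 and 231 CPM in WT-1. WT-1 replicate 3 again stood at about the level of WT-2 and the other libraries of WT-1 at that of Mut-2. Cldn4 was at -0.88 in Mut-2 against WT-2 (adjusted p = 0.103) and at -0.65 in Mut-2 against Mut-1 (adjusted p = 0.638).

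Most of the other grainyhead, AP-2 and epithelial factors tested had a higher value in the mutants, and none was called between genotypes. Of the 24 listed, 19 were tested, 14 had a higher and 5 a lower value in the mutants, and the median was 0.25. At an unadjusted p under 0.05, 2 were higher and 1 lower, beside 9.17% and 3.88% of all genes. Klf5, a factor of pluripotency and of epithelial growth that lies on chromosome 14, was at 173 ± 11.2 CPM in mutant lines and 122 ± 1.79 CPM in wild-type lines (log2 fold change 0.50, adjusted p = 0.181), where the 579 tested genes of its chromosome had a median of 0.38. Cited2, a coactivator of AP-2 factors, was at 98.4 ± 10.8 CPM in mutant lines and 65.8 ± 9.48 CPM in wild-type lines (0.58, adjusted p = 0.209). Elf3, an epithelial ETS factor, was at 77.9 ± 10.1 CPM in mutant lines and 104 ± 19.5 CPM in wild-type lines (-0.41, adjusted p = 0.327). Its wild-type libraries alone ran from 31.9 to 236 CPM. Tfcp2l1, a grainyhead relative of the naive pluripotency network, was at 812 ± 4.72 CPM in mutant lines and 777 ± 125 CPM in wild-type lines. In Mut-2 against Mut-1, 15 of 17 tested factors were lower, with a median of -0.42 and 1 at an unadjusted p under 0.05.

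The keratins and other simple epithelial genes beyond the 10, 7 of them tested, had a median of -0.11 between genotypes with none at an unadjusted p under 0.05. Surface ectoderm and epidermal genes had a median of 0.05 over 17 tested genes, 9 higher and 8 lower. Perp, a desmosomal gene of stratified epithelium, was called in Mut-2 against WT-2 (log2 fold change 0.75, adjusted p = 0.0348 with edgeR). It was the 1 called of 15 tested genes of the list, in a pair that called 153 of 16533 genes (0.925%). Perp was at 42.5, 50.9 and 49.1 CPM in Mut-2 and at 29.0, 31.2 and 24.5 CPM in WT-2. In the other lines it was at 42.2, 34.4 and 30.1 CPM in Mut-1 and at 36.3, 36.3 and 33.2 CPM in WT-1. Trophoblast genes had a median of 0.04 over 19 tested genes. Ascl2, a factor of the trophoblast, was at 6.42 ± 0.0471 CPM in mutant lines and 10.7 ± 2.58 CPM in wild-type lines (-0.74, adjusted p = 0.244). WT-2 replicate 1 alone had 27.3 CPM of Ascl2, the other wild-type libraries had 4.63 to 10.8 CPM, and the mutant libraries 2.57 to 10.6 CPM.

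Genes of epithelial to mesenchymal transition, among them the E-cadherin repressors of the Zeb and Snail families, had a higher value in the mutants for 20 of 21 tested, 15 of them at an unadjusted p under 0.05 (beside 9.17% of all genes) and none called, with a median of 0.47. Mmp14, a membrane matrix metalloprotease, was called in Mut-2 against WT-2 (0.82, adjusted p = 0.0483). It lies on chromosome 14, whose 511 tested genes had a median of 0.44 in this pair. The feeder genes S100a6 (0.89, adjusted p = 0.0349) and Vcan (0.86, adjusted p = 0.0392) were called in the same pair. Feeder genes had a median of 0.58 over 39 tested genes, and 5 of the 21 transition genes (Acta2, Cdh11, Mmp2, Prrx1 and Twist2) are on the feeder list as well. The part of feeder RNA in the transition list was not tested. Pluripotency genes had 4 higher and 12 lower, with a median of -0.06.

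**Figure D5:**
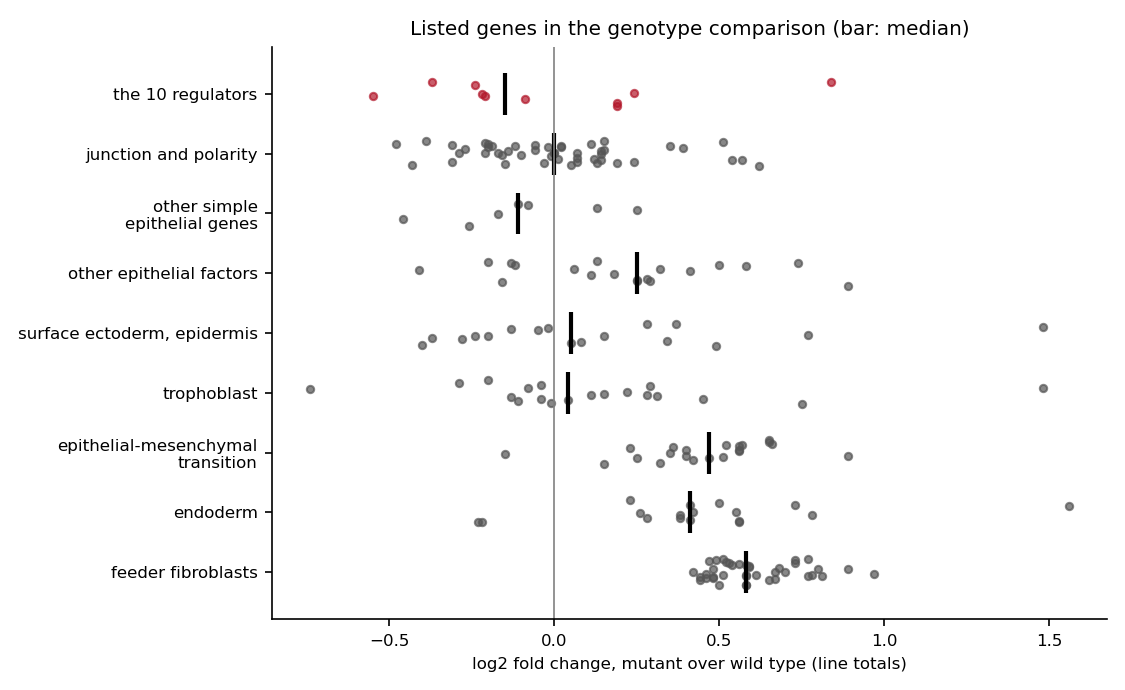
Log2 fold change of mutant over wild type for the tested genes of each list, 1 point per gene with vertical scatter only to separate points, and a bar at the median. The 10 genes and the junction list lie about 0, at medians of -0.15 and 0.00, while transition, endoderm and feeder genes lie to the right at 0.47, 0.41 and 0.58.

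Likeness across the 12 libraries was described by Pearson's r of log2(CPM + 0.5) over genes of at least 5 CPM. These values share libraries, depth and line, and are given without a test. Krt8 and Krt18 had r = 0.82, which ranked Krt18 at place 17 of 11411 genes for Krt8, and Krt8 at place 71 for Krt18. Tfap2a ranked Krt8 at place 11 with r = 0.75, and Tfap2c and Grhl2 ran against each other with r = -0.71. The genes most like Tfap2c were Trim39 (0.92), Mis18a (0.90) and Vrk1 (0.90), and those most like Krt19 were Pgm2 (0.94), Ace (0.94) and Ndufa4l2 (0.93). Those most like Cdh1 were Clcn3 (0.90) and Elmo3 (0.89), both on chromosome 8 as is Cdh1, and Dhx34 (0.89) on chromosome 7. Cep83 was most like Esrp1 (0.94), Phkb most like Krt18 (0.95), Trmu most like Krt8 (0.90) and Cspg5 most like Grhl2 (0.95).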

How the data were processed

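RNA-seq libraries of 4 mouse embryonic stem cell lines were analysed from 1 table of counts per gene. The deposited values are whole-number counts, not normalized by the authors. Tools listed in the submitters' processing notes are HTSeq 0.6.0, HISAT2 2.1.0, Bowtie2 2.2.3 and bcl2fastq, and the genome is GRCm38. Which annotation was used, and whether counting used strand, is not given in the sources used here, so reads where genes overlap, antisense ones included, cannot be assigned to 1 of them. Every column of the table was used.

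Libraries were grouped by title. The comparison of genotypes summed the 3 libraries of a line, and pairs of lines were compared in 1 fit of 12 libraries, with edgeR 4.0.16 (quasi-likelihood test, TMM, filterByExpr, Benjamini-Hochberg) in R 4.3.3. Alternatives used DESeq2 1.42.0, limma 3.58.1, RLE scaling, no filter, a fold threshold, a replicate block and left-out libraries or lines. The fits were tested on simulated data in which lines of a genotype did not differ. That simulation does not show how the fits behave where such lines differ, as they do here. WT-1 replicates 1 and 2 differed by more than sampling noise and both stayed in. Gene positions, exon lengths and overlaps come from GENCODE M21 on GRCm38, and promoter windows from RefSeq.

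Same-number libraries deviated together (each of 3 correlations over 11412 genes above 0.1) between Mut-2 and WT-2 (0.114 to 0.695) and between Mut-2 and Mut-1 (0.139 to 0.493). So they did between WT-2 and WT-1 (0.194 to 0.621) and between Mut-1 and WT-2 (0.288 to 0.404). They did not between Mut-1 and WT-1 (-0.13 to 0.217) or between Mut-2 and WT-1 (-0.288 to -0.105). Libraries of different number were not compared, so these values cannot show whether the numbers pair libraries across lines.

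The 10 genes, the lists and the tests were chosen with earlier results of these data known. The text names the 10 genes, Tinf2, marker genes checked against the labels, from each list at most 4 genes of smallest p in the genotype comparison (and for junction genes, other factors and trophoblast at most 4 of highest mean CPM), genes called in a pair, and at most 3 most alike genes. Lists are described by counts and medians, without a set test. The settings without the 3 libraries of highest feeder share were added after the data were seen.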

Additional observations from a re-analysis of the deposited data

Results flagged for a closer look

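Each of the 10 genes was checked in the 6 libraries of each genotype, 20 groups in all, for a library far from the others by Dixon's criterion (gap over range above 0.625). Chance flags about 1 group in 20, and 2 were found.

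Grhl3 had 40.0 CPM in WT-2 replicate 1, and the nearest other wild-type library had 22.8 CPM, a gap of 0.75 of the range.

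Tfap2a had 4.92 CPM in WT-1 replicate 1, and the nearest other wild-type library had 3.57 CPM, a gap of 0.634 of the range.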

How the results depend on the processing

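The count of genes called between genotypes, 0 with edgeR on line totals, was 1 with RLE scaling, 77 with no filter on low counts, 361 with DESeq2, 233 with limma-voom, 33 with limma-voom and the feeder share as covariate, 387 with 12 libraries as units and 559 with these and a replicate block. It was 158, 92 and 53 without line Mut-1, Mut-2 and WT-1, 0 without WT-2, and 0 to 96 without single libraries, the highest without Mut-1 replicate 3. For Mut-2 against WT-2 (153 genes) the count was 966 with no filter, 657 with DESeq2, 314 with the replicate block, 76 with a minimum fold of 1 on the log2 scale, 1 without the 3 libraries of highest feeder share and 9 to 120 without single libraries, the lowest without Mut-2 replicate 2. For Mut-1 against WT-1 (54 genes) it was 543, 196, 87 and 34 under the first 4 of these, and 16 to 447 without single libraries, the highest without WT-1 replicate 3. For Mut-2 against Mut-1 (43 genes) it was 270, 126, 68 and 20, then 1 without the 3 libraries and 3 to 41 without single ones, the lowest without Mut-2 replicate 2. For WT-2 against WT-1 (3 genes) it was 201, 62 and 8 under the first 3, and 0 to 42 without single libraries, the highest without WT-1 replicate 3. The causes were not tested.

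The 10 genes gave 50 fold changes, set beside 730 alternative values. Not all of these are separate fits. They include the fold threshold put on the same fit, and genotype values taken relative to the median of the gene's chromosome. Of the 730, 662 kept direction and side of the threshold, 25 newly passed, 4 no longer passed and 39 changed sign. The chromosome values were counted as kept where they moved by less than the SE. No fold change that changed sign was called in the fit given in the text. Between genotypes, the sign changed without line Mut-1 for Tfap2a (-0.14) and Krt8 (-0.42), without WT-2 for Krt8 (-0.10) and Esrp1 (0.20), without Mut-2 for Krt18 (0.26) and Esrp1 (0.42), without WT-1 for Krt18 (0.09), and with the feeder covariate for Esrp1 (0.04). Without the 3 libraries of highest feeder share it changed for Krt19 in Mut-1 against WT-1 (0.13) and WT-2 against WT-1 (-0.00), for Grhl2 (-0.16) and Epcam (0.18) in Mut-2 against WT-2, and for Tfap2c in Mut-2 against Mut-1 (0.09). With the replicate block Krt19 changed sign in Mut-1 against WT-1 (0.38) and in WT-2 against WT-1 (-0.09), where RLE scaling gave -0.00 and DESeq2 -0.01. Same-number libraries of WT-1 did not deviate together with those of Mut-1 or Mut-2. The block changed no other call of the 10 genes than those given for Cdh1, Esrp1 and Tfap2c.

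Leaving out single libraries gave ranges that cross 0 for the genotype difference of Esrp1 (-0.35 to 0.09), Grhl3 (-0.41 to 0.03), Krt18 (-0.17 to 0.01) and Krt19 (-0.60 to 0.00). In Mut-2 against WT-2 they did for Epcam (-0.18 to 0.07), Krt19 (-1.42 to 0.05) and Tfap2a (-0.15 to 0.08), and in Mut-1 against WT-1 for Grhl3 (-0.02 to 0.15) and Krt19 (-0.49 to 0.24). In WT-2 against WT-1 they did for Grhl2 (-0.09 to 0.99), Grhl3 (-0.22 to 0.51), Krt19 (-0.83 to 0.46) and Tfap2a (-0.33 to 0.03), and in Mut-2 against Mut-1 for Tfap2c (-0.29 to 0.06). Whether depth, the number of lines or the model limits the comparison of genotypes was not tested.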
